A study of Mus musculus with 12 samples.

Results

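Glycosaminoglycans are the sugar chains of cartilage proteoglycans, and the genes described here encode the enzymes and transporters that supply, build and sulfate them. Members were taken by gene symbol: every carbohydrate sulfotransferase (Chst followed by a number), every Ndst, Hs2st, Hs3st and Hs6st gene, every Ext and Extl gene, and 17 genes chosen by name for donor supply, the linker, the chondroitin chain and hyaluronan. This gave 51 members of the 28244 genes listed, of which 47 had enough signal to be tested. The rule used symbols only.

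The libraries came from mouse cartilage progenitors of the C57/BL6 strain, taken from the heads and condyles of femurs and tibiae of pups aged 5 or 6 days and labelled as murine mesenchymal progenitors. The cells were grown as pellets in chondrogenic medium for 7 days and then in osteogenic medium, and mRNA was sequenced on days 7, 8, 10 and 28 of culture (D7, D8, D10 and D28), which is after 0, 1, 3 and 21 days of osteogenic medium. Each time point had 3 libraries, 12 in all, and no gene was altered in any of them. Nothing in the labels says that the 3 libraries of a time point came from separate animals or cultures, so the p-values measure the spread between these libraries, which may be technical. D7 was the reference, and time in culture and change of medium cannot be told apart, because no pellets kept in chondrogenic medium were among the samples.

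Chondroitin sulfate and heparan sulfate chains both begin on a short linker that is built on a serine of the core protein. Chondroitin synthases or the exostosin proteins then extend the chain, and sulfotransferases place sulfate at set positions, drawing on the activated donor PAPS. The pattern of sulfate along heparan sulfate decides which growth factors it holds, while in cartilage the sulfated chondroitin chains of aggrecan hold water and resist compression. Hyaluronan differs from both, being made without a core protein or sulfate by synthases in the plasma membrane.

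The promoters of Hs3st3a1, Hs3st3b1 and Has1 are shown because the results turn on these genes: the neighbours Hs3st3a1 and Hs3st3b1 fell to D10 and rose to D28, and Has1 rose to D10 and fell to D28. Hs3st3b1 lies on chr11:63885792-63922290 (minus strand) and Hs3st3a1 on chr11:64435332-64522841 (plus strand) in GRCm38, 513 kb apart with 1 protein-coding gene, Cox10, between them. Has1 lies on chr17:17843323-17855205 (minus strand). Each window runs from 250 bases before to 50 bases after the RefSeq gene start in GRCm38.p6, at chr11:64435082-64435381 (plus), chr11:63922235-63922534 (minus) and chr17:17855139-17855438 (minus), and is printed 5′ to 3′. Capitals mark matches to the motifs named after the sequences.
Hs3st3a1: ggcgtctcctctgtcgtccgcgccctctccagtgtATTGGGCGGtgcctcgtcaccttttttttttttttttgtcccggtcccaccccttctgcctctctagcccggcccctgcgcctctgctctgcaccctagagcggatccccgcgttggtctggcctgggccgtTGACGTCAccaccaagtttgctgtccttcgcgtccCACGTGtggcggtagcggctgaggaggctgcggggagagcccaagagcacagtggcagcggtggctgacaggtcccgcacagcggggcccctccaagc
Hs3st3b1: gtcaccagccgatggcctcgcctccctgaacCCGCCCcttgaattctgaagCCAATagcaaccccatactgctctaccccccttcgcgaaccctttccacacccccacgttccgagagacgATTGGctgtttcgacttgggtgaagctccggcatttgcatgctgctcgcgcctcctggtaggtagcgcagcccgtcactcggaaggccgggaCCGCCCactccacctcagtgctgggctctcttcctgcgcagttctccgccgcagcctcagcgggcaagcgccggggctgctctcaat
Has1: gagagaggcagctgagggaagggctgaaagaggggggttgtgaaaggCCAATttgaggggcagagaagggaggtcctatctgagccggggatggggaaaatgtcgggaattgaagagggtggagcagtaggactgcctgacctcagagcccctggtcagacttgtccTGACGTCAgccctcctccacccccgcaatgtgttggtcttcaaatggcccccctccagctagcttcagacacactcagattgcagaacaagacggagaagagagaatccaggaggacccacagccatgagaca

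The motifs searched, on both strands, were the cyclic AMP response element TGACGTCA, the AP-1 site TGANTCA, the E-box CACGTG, the GC box GGGCGG, the CCAAT box CCAAT and the TATA box TATAAA. Hs3st3a1 and Has1 each held 1 TGACGTCA, starting 83 bases before the gene start in both, and Hs3st3b1 held none. This motif was present in 1.79% of 32851 mouse promoter windows of the same length, and among the 47 windows found for 39 member genes it was present in 4, those of Chpf, Hs3st2, Hs3st3a1 and Has1. Hs3st3a1 also held 1 CACGTG (7.15% of all windows), 1 CCAAT and 1 GGGCGG, and the latter pair overlapped. Hs3st3b1 held 2 GGGCGG (35.7% of all windows) and 2 CCAAT (37.4%), and Has1 held 1 CCAAT. None of the 3 windows held TGANTCA (7.81%) or TATAAA (13.6%). A match is a description of these letters, and whether it bears on the levels was not tested. Of the 4 genes with TGACGTCA, Hs3st3a1 and Has1 moved in opposite directions, Chpf was not called and Hs3st2 was at 0.

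All levels are the deposited log2 values of gene counts that had been equalized between libraries, plus 1. Because of the equalization the depth is given only in relative terms, which ranged from 0.730 for D10 replicate 1 to 1.31 for D28 replicate 1, and the D28 libraries were the deepest as a group (1.20 to 1.31). A single read stood at 0.50 to 1.81 on the log2 scale, and 3 reads stood at 2.87 or less, so values under this carry little information. Markers of cartilage were present at every time point: none of the 8 chondrocyte markers was at 0. Col2a1 stood at the same maximum, set by equalization, in all D7, D8 and D28 libraries and at 19.87 in all D10 libraries, so its level cannot be read and it was not called. The log2 summed level of the other 7, added up after this was seen, was 18.83 to 18.89 at D7, 18.46 to 19.34 at D8, 17.17 to 17.55 at D10 and 18.57 to 18.82 at D28. Of the 8 markers, 6 fell from D7 to D10 and 5 rose from D10 to D28. Markers of other cells moved too. The 6 adipocyte markers had a summed level of 12.57 to 12.70 at D7, 11.81 to 12.06 at D8, 11.27 to 11.41 at D10 and 15.83 to 16.29 at D28, and 4 of them fell from D7 to D10 and all 6 rose from D10 to D28. The 6 skeletal muscle markers went from 11.21 to 11.54 at D7 down to 6.04 to 6.96 at D28, with Myh3 and Myod1 at or under 3 reads there. Of 5 markers of dividing cells 4 were lower at D28 than at D7, with summed levels of 9.81 to 10.35 against 12.15 to 12.16. In the other lists, 1 of 6 macrophage markers was higher and 2 were lower at D10 than at D7, and 4 rose and 1 fell from D10 to D28. Of 8 osteoblast markers 3 were higher and 4 lower at D10 than at D7, and 5 rose and 0 fell to D28. Of 3 hypertrophic chondrocyte markers 2 were lower at D10 than at D7, and 2 rose and 1 fell to D28. Of 4 tested osteoclast markers 2 were higher at D10 than at D7 and 1 fell to D28, and of 5 endothelial markers 1 was higher at D10 than at D7 and 0 changed to D28. Between D7 and D28 the counts higher and lower were 1 and 0 (macrophage), 3 and 2 (osteoblast), 0 and 1 (hypertrophic chondrocyte), 1 and 0 (osteoclast) and 0 and 1 (endothelial). Calcr of the osteoclast list was at 0 in all libraries. The part of these shifts in the results below was not tested, and in pellets sequenced whole, fewer cells of a type and less RNA per cell cannot be told apart.

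A gene was called changed at a log2 fold change of at least 1 in either direction with an adjusted p under 0.05 in a limma fit to all 12 libraries. By this rule 25 of the 47 tested members (53.2%) changed in at least 1 of 5 comparisons, against 38.2% of all 17674 genes tested. From D7 to D8, 5 members were called, or 10.6% of members against 7.04% of all genes. Without D8 replicate 2 only 2 of them were called (4.26% against 5.97%), with Has1, Hs3st3a1 and Hs3st3b1 lost, so the higher share of members rests on that library. Has1, Hs6st2 and Ndst3 were higher (3 members, against 3.23% of all genes) and Hs3st3a1 and Hs3st3b1 were lower (2 members, against 3.81%). From D8 to D10, 8 were called (17% against 9.66%), of which 1 was higher (against 4.08% of all genes) and 7 were lower (14.9% against 5.58%). Between D7 and D10, 13 were called (27.7% against 18.9%). Of these 3 were higher (6.38% against 8.5%) and 10 were lower (21.3% against 10.4%). From D10 to D28, 16 were called (34% against 27.5%), with 8 higher (17% against 13.8%) and 8 lower (17% against 13.7%). Between D7 and D28, 10 were called (21.3% against 17.3%), with 3 higher (6.38% against 8.63%) and 7 lower (14.9% against 8.66%). When the equalized values were scaled further by median of ratios, the D10 to D28 split was 11 higher and 7 lower, and the median over all genes moved from -0.10 to 0.01. This scaling was added on top of the equalization, so it cannot check the equalization itself.

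**Figure D1:**
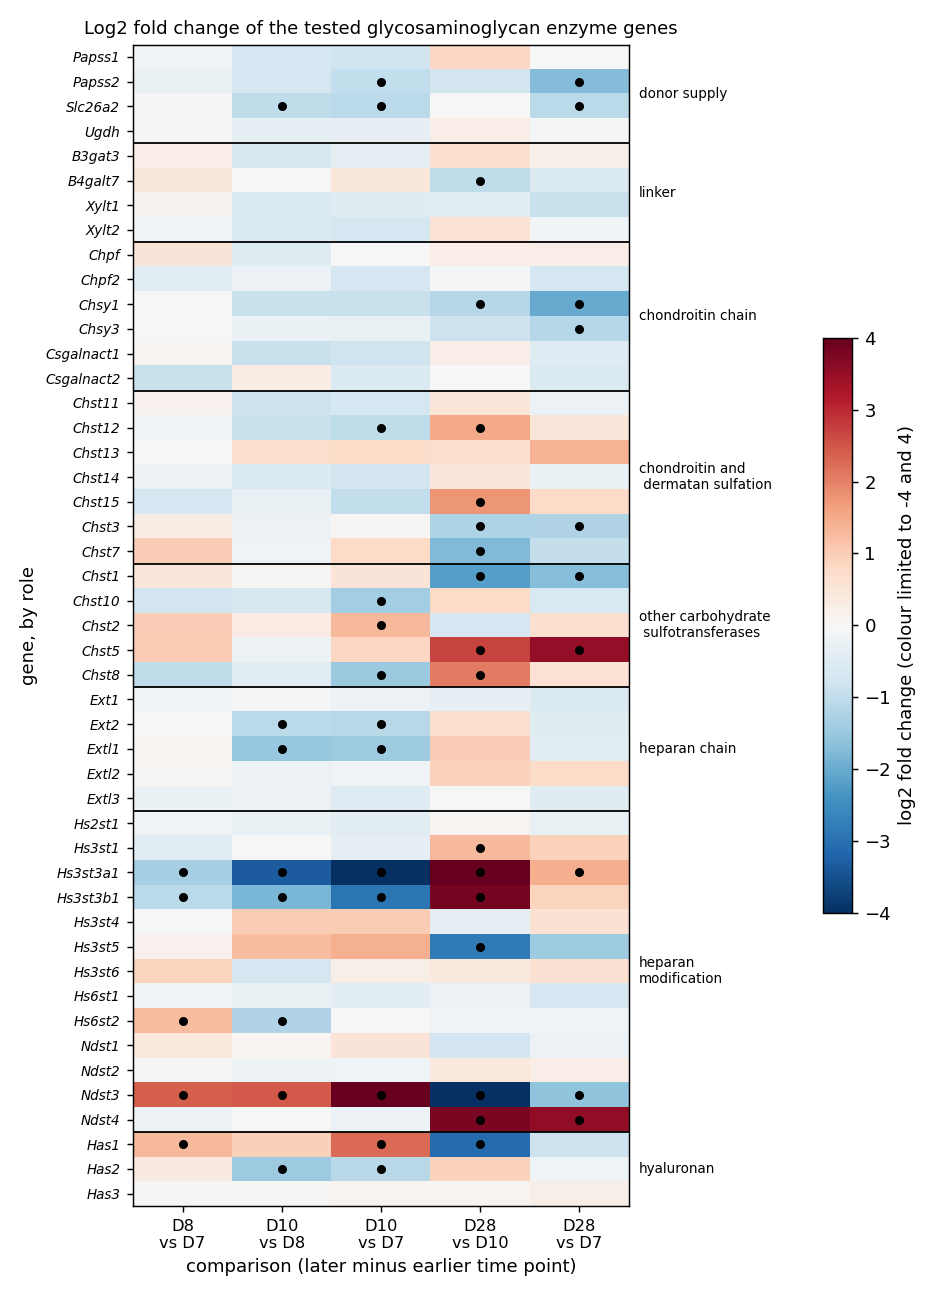
Log2 fold change (colour, limited to -4 and 4) of each of the 47 tested members (rows, ordered by role) in 5 comparisons (columns, later minus earlier time point). Black dots mark calls by fold and adjusted p. Blue prevails in the D10 vs D7 column, where 10 members were lower and 3 higher.

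At D10 more members were called lower than higher against D7. The median log2 fold change of members between D7 and D10 was -0.38 against 0.05 for all genes, and from D10 to D28 it was 0.25 against -0.10. All 3 D10 libraries lay below every D7 and every D28 library for 15 of the 47 members (31.9% against 13.5% of all genes, with no fold or p in this count). Only 4 of them were called lower at D10 than at both D7 and D28 (8.51% against 6.19%): Hs3st3a1, Hs3st3b1, Chst12 and Chst8. Has1 and Ndst3 were called higher at D10 than at both (4.26% against 5.28%). Both comparisons use the D10 libraries, so a low D10 value enters both. At the end of culture 19 members (40.4% against 24.4% of all genes) had all D28 libraries below all D7 libraries.

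**Figure D2:**
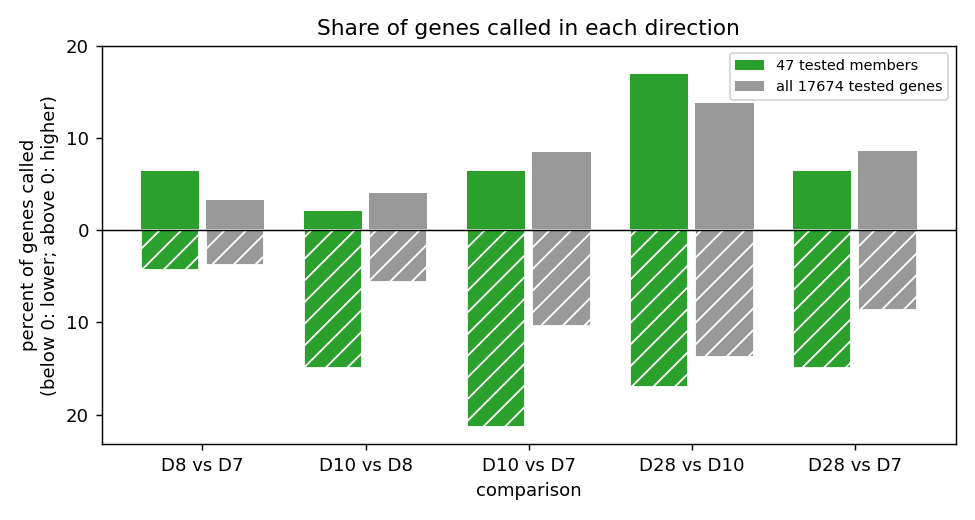
Percent of genes called higher (above the zero line) and lower (below it, hatched) in each of 5 comparisons, for the 47 tested members (green) and all 17674 tested genes (grey). The lower bars of members exceed those of all genes most in D10 vs D7, at 21.3% against 10.4%.

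Of the 4 donor supply members, 2 were lower than at D7 both at D10 (against 10.4% of all genes) and at D28 (against 8.66%). Papss2 makes PAPS, the sulfate donor, and is the main PAPS synthase of growth plate cartilage. Its level was 14.30, 14.25 and 14.06 in the D7 libraries, 13.57, 13.77 and 14.34 at D8, 13.21, 13.13 and 13.27 at D10, and 12.68, 12.36 and 12.31 at D28. The D7, D10 and D28 groups did not overlap, and the values stepped down in that order. The log2 fold change was -1.0 (SE 0.17, adjusted p = 0.00017) at D10 and -1.75 (SE 0.17, adjusted p = 7.6e-07) at D28, both against D7. The D10 call sat at the fold threshold and was lost without D7 replicate 1 (-0.96), D7 replicate 2 (-0.98) or D10 replicate 2 (-0.97). Papss1, the other PAPS synthase, was not called in any comparison, with means of 10.82 ± 0.10 (SD, n = 3) at D7, 10.01 ± 0.13 at D10 and 10.85 ± 0.12 at D28. Per kb of exon on the linear scale (the log2 values turned back into equalized counts and divided by the exon length of each gene), Papss2 made up 88.4% to 90.5% of the 2 PAPS synthases at D7 and 68% to 73.9% at D28.

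Slc26a2, the sulfate transporter of chondrocytes, stood at 11.95, 12.03 and 11.80 at D7, 11.64, 11.70 and 12.23 at D8, 10.42, 11.00 and 11.10 at D10, and 11.09, 10.73 and 10.74 at D28. All D10 and D28 libraries lay below all D7 and D8 libraries. It fell by 1.02 on the log2 scale from D8 to D10 (SE 0.18, adjusted p = 0.00073), and against D7 it was lower by a log2 fold change of -1.08 at D10 (adjusted p = 0.00018) and -1.07 at D28 (adjusted p = 0.00022). Both D10 calls rested on D10 replicate 1, the shallowest library: without it the log2 fold changes were -0.80 against D8 and -0.87 against D7. Leaving out D8 replicate 3 also ended the D8 to D10 call (-0.83). Ugdh, which makes the glucuronic acid donor, had means between 11.70 and 12.06 and was not called.

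Of the 4 linker enzymes, 1 was called, between D10 and D28, against 27.5% of all genes. Xylt1 and Xylt2 add the xylose that starts the chain, B4galt7 adds galactose and B3gat3 closes the linker with glucuronic acid. The called gene was B4galt7. Its level was 10.40, 10.25 and 10.44 at D7, 10.77, 10.96 and 10.72 at D8, 10.60, 10.80 and 11.05 at D10, and 9.84, 9.79 and 9.77 at D28. The D28 libraries were below all others, and the fall from D10 had a log2 fold change of -1.02 (SE 0.12, adjusted p = 2.9e-06). That call was lost without D10 replicate 3 (-0.90) and under median-of-ratios scaling (-0.89). Xylt1, the more abundant xylosyltransferase per kb at every time point, had means of 13.76 ± 0.14 at D7 and 12.86 ± 0.13 at D28 (SD, n = 3). The difference of -0.90 on the log2 scale (adjusted p = 0.00021) stayed under the fold threshold. Xylt2 and B3gat3 had means between 8.99 and 10.33.

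Of the 6 chondroitin chain genes, the 2 chondroitin synthases were lower at D28 than at D7, against 8.66% of all genes. Chsy1, which extends the chain by alternating its 2 sugars, stood at 12.69, 12.56 and 12.79 at D7, 12.47, 12.67 and 12.88 at D8, 11.45, 12 and 11.89 at D10, and 10.45, 10.78 and 10.71 at D28. Neither D10 nor D28 overlapped any other time point. The log2 fold change was -1.14 from D10 to D28 (SE 0.15, adjusted p = 9.6e-06) and -2.03 from D7 to D28 (SE 0.15, adjusted p = 4.8e-08), a 4.09-fold fall. From D7 to D10 it was -0.90 (adjusted p = 0.00016), under the fold threshold, and passed it without D10 replicate 2.

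Chsy3, the related synthase, stood at 10.47, 10.60 and 10.63 at D7, 10.40, 10.50 and 10.70 at D8, 10.10, 10.35 and 10.31 at D10, and 9.25, 9.40 and 9.62 at D28. The D28 libraries were the lowest, with a log2 fold change of -1.14 against D7 (SE 0.12, adjusted p = 2e-06). Chsy1 took 87.1% to 88.9% of the summed per-kb level of the 2 synthases at D7 and 78.7% to 81.8% at D28. The polymerizing factors Chpf and Chpf2, partners of the synthases, and the chain-starting N-acetylgalactosaminyltransferases Csgalnact1 and Csgalnact2 were not called. Their means lay between 10.74 and 12.01. Per kb of exon on the linear scale, Csgalnact1 stood at 580 ± 14.9 and Csgalnact2 at 760 ± 73.6 equalized counts at D7 (SD, n = 3). At D8 the order was turned, with 625 ± 115 against 412 ± 56.3, and at D10 it was back, with 336 ± 30.0 against 504 ± 29.3.

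**Figure D3:**
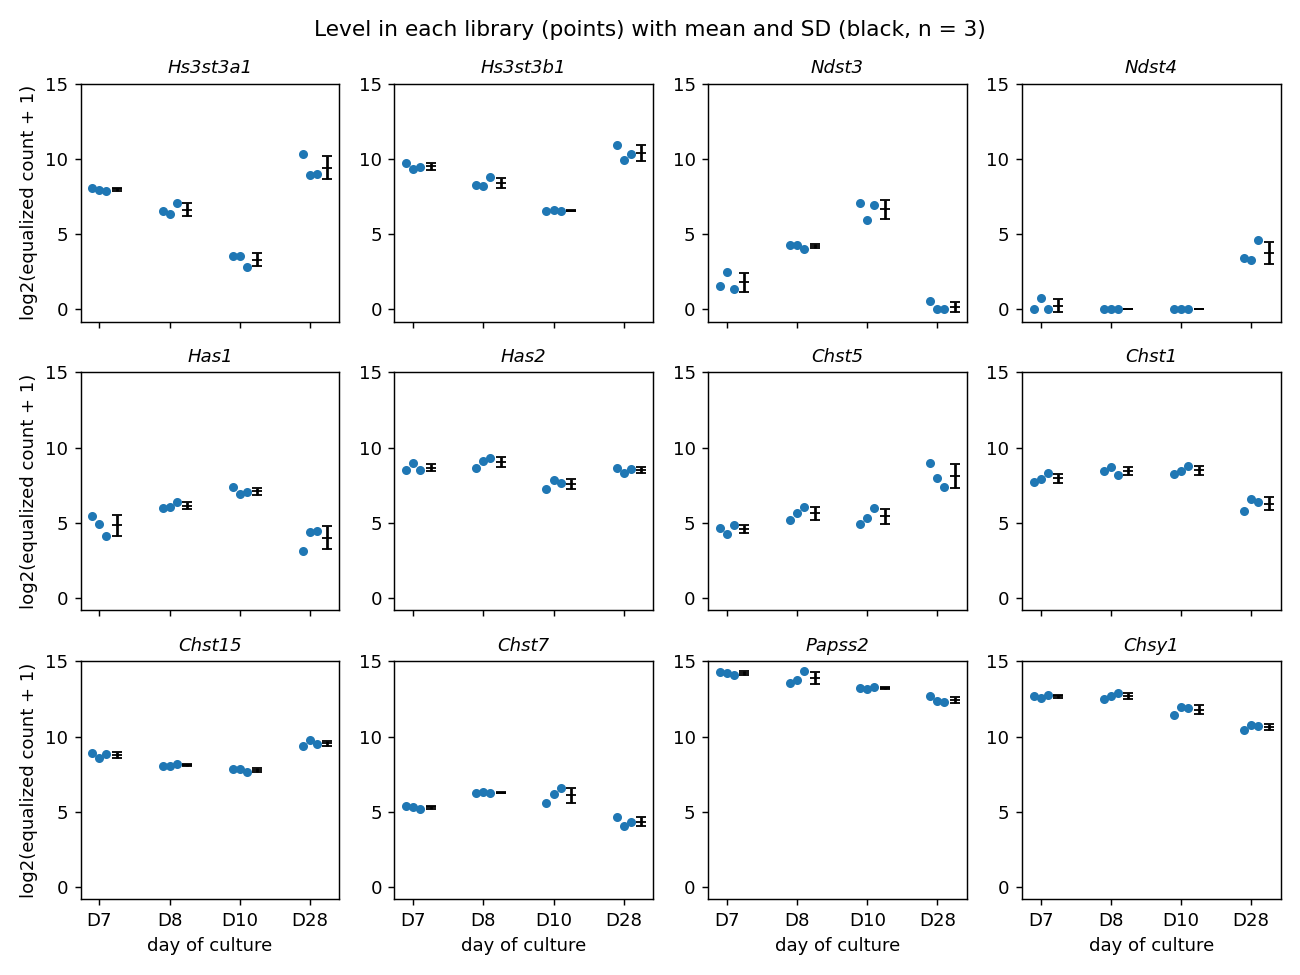
Log2 level of 12 members in each library (blue points) on D7, D8, D10 and D28, evenly spaced, with the mean and SD of the 3 libraries (black). Hs3st3a1 and Hs3st3b1 are lowest at D10, Ndst3 and Has1 are highest there, Ndst4 is above 3 reads at D28 only, and Papss2 and Chsy1 are lowest at D28.

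Of the 7 chondroitin and dermatan sulfotransferases, 4 were called between D10 and D28, against 27.5% of all genes. The 6-O-sulfotransferases Chst3 and Chst7 fell between D10 and D28, while Chst12, a 4-O-sulfotransferase, and Chst15, which adds a 6-O-sulfate to units that are already 4-O-sulfated, rose. Chst3 stood at 9.37, 8.60 and 8.80 at D7, 9.10, 9.30 and 9.24 at D8, 8.66, 8.97 and 9.29 at D10, and 8.00, 7.41 and 7.77 at D28. The D28 libraries were below all others, with a log2 fold change of -1.24 against D10 (SE 0.21, adjusted p = 0.00011) and -1.20 against D7 (SE 0.21, adjusted p = 0.00027), the latter lost without D7 replicate 1 (-0.97). Chst7 stood at 5.40, 5.31 and 5.19 at D7, 6.24, 6.33 and 6.28 at D8, 5.58, 6.16 and 6.58 at D10, and 4.67, 4.05 and 4.33 at D28. It too was lowest at D28, with a log2 fold change of -1.76 from D10 (SE 0.29, adjusted p = 0.00012).

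Chst15 stood at 8.89, 8.56 and 8.86 at D7, 8.05, 8.05 and 8.18 at D8, 7.88, 7.87 and 7.65 at D10, and 9.39, 9.76 and 9.50 at D28. No 2 time points overlapped, and D28 was the highest. The rise from D10 had a log2 fold change of 1.75 (SE 0.14, adjusted p = 6.5e-08), and the D10 value against D7, -0.97 (adjusted p = 5.3e-05), passed the fold threshold under median-of-ratios scaling (-1.04). Chst12 stood at 11.20, 11.03 and 11.45 at D7, 11.08, 10.93 and 11.27 at D8, 9.93, 10.30 and 10.37 at D10, and 11.85, 11.73 and 11.54 at D28. It was lowest at D10 and highest at D28, with a log2 fold change of -1.03 from D7 to D10 (SE 0.14, adjusted p = 2.9e-05) and 1.51 from D10 to D28 (SE 0.14, adjusted p = 3.1e-07). The D7 to D10 call was lost without D7 replicate 3 (-0.92) or D10 replicate 1 (-0.90). Chst11, the chondroitin 4-O-sulfotransferase with the highest mean per kb at D7, D8 and D10, had means of 13.07 ± 0.05 at D7, 12.36 ± 0.20 at D10 and 12.83 ± 0.23 at D28 (SD, n = 3) and was not called. Chst14, which sulfates dermatan, had means between 8.80 and 9.54, and Chst13 stayed between 0 and 4.00 with no call.

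Read per kb of exon on the linear scale, the 6-O enzymes Chst3 and Chst7 made up 3.04% to 4.43% of the summed 4-O and 6-O chondroitin sulfotransferases (Chst3, Chst7, Chst11, Chst12 and Chst13) at D7. The share was 3.96% to 5.1% at D8, 6.32% to 7.89% at D10 and 1.24% to 1.67% at D28. The sum itself was 2540 to 2770 equalized counts per kb at D7, 2580 to 3220 at D8, 1320 to 1760 at D10 and 2520 to 3210 at D28. The larger D10 share thus came with a smaller sum. From D7 to D10 Chst3 went from 76.6 ± 22.2 to 78.3 ± 17.3 per kb, and Chst7 from 17.4 ± 1.33 to 32.1 ± 10.7 (SD, n = 3). The D10 and D28 shares overlapped no other time point. These shares describe mRNA and were not tested.

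The other carbohydrate sulfotransferases act on keratan sulfate or on glycoproteins. Chst5, a GlcNAc 6-O-sulfotransferase of the keratan sulfate type, stood at 4.69, 4.30 and 4.86 at D7, 5.22, 5.68 and 6.05 at D8, 4.96, 5.36 and 6.00 at D10, and 9.0, 7.96 and 7.42 at D28. The D28 libraries were far above the rest, although they spread over more than a log2 unit. The log2 fold change was 2.69 from D10 (SE 0.38, adjusted p = 2.6e-05) and 3.51 from D7 (SE 0.38, adjusted p = 3.5e-06), an 11.4-fold rise. Chst1, which sulfates the galactose of keratan sulfate, went the other way: 7.73, 7.91 and 8.32 at D7, 8.45, 8.73 and 8.18 at D8, 8.23, 8.48 and 8.78 at D10, and 5.83, 6.62 and 6.42 at D28. Its log2 fold change was -2.21 from D10 to D28 (SE 0.23, adjusted p = 1e-06) and -1.70 from D7 to D28 (SE 0.23, adjusted p = 3e-05).

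Chst8, known for sulfating glycoprotein hormones, stood at 4.64, 5.43 and 5.56 at D7, 4.14, 3.82 and 4.61 at D8, 3.98, 3.91 and 3.29 at D10, and 5.95, 5.26 and 6.17 at D28. It was lowest at D10, though that group reached into the D8 range, with a log2 fold change of -1.49 from D7 (SE 0.38, adjusted p = 0.0056) and 2.07 from D10 to D28 (SE 0.38, adjusted p = 0.0003). Chst10, which makes the HNK-1 epitope, stood at 6.75, 6.86 and 6.95 at D7, 5.77, 6.20 and 6.31 at D8, 5.05, 5.51 and 5.83 at D10, and 6.42, 6.39 and 5.95 at D28. The D7 libraries were above all others, and D10 was lower by a log2 fold change of -1.39 (SE 0.26, adjusted p = 0.00051). Chst2, another GlcNAc 6-O-sulfotransferase, rose from 7.95 ± 0.15 at D7 to 9.26 ± 0.29 at D10 (SD, n = 3), or by 1.31 on the log2 scale (adjusted p = 5.2e-05). Chst4 was listed at 0 in every library and Chst9 had signal in 1 library, so neither was tested.

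In the exostosin family, whose Ext1 and Ext2 form the heparan sulfate polymerase, 2 of 5 genes were lower at D10 than at D7 (against 10.4% of all genes) and than at D8 (against 5.58%). Extl1 stood at 11.48, 11.14 and 11.66 at D7, 11.18, 11.61 and 11.83 at D8, 9.83, 10.14 and 10.04 at D10, and 11.32, 10.94 and 10.74 at D28. The D10 libraries were the lowest, with a log2 fold change of -1.53 against D8 (SE 0.18, adjusted p = 2.6e-05) and -1.42 against D7 (SE 0.18, adjusted p = 1.3e-05). The return to D28, 0.99 (adjusted p = 0.00022), missed the fold threshold and passed it under median-of-ratios scaling. It also passed without D10 replicate 2 (1.06), D10 replicate 3 (1.01), D28 replicate 2 (1.02) or D28 replicate 3 (1.12).

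Ext2, the partner of Ext1 in the heparan sulfate polymerase, stood at 11.99, 11.76 and 12.20 at D7, 11.97, 11.88 and 12.06 at D8, 10.45, 11.15 and 11.05 at D10, and 11.58, 11.53 and 11.42 at D28. It was lowest at D10, with a log2 fold change of -1.08 against D8 (SE 0.16, adjusted p = 0.00014) and -1.10 against D7 (SE 0.16, adjusted p = 4.4e-05). Both calls rested on D10 replicate 1: without it the values were -0.87 and -0.88 (adjusted p = 0.00021 and 5.3e-05), under the fold threshold. Without D7 replicate 3 the comparison with D7 gave -0.99. Ext1 itself had means between 10.70 and 11.27 and was not called. Per kb of exon on the linear scale, Ext1 stood at 307 ± 28.9 and Ext2 at 557 ± 85.2 equalized counts at D7, and at D10 the values were 261 ± 18.5 and 264 ± 63.5 (SD, n = 3), within the spread of each other. Extl2 had means between 9.0 and 9.91 and Extl3 between 10.72 and 11.23, with no call.

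Heparan sulfate modification had the largest group of members, with 13 of 15 tested. Hs3st3a1 and Hs3st3b1 encode 3-O-sulfotransferases, which add a rare, late sulfate to heparan sulfate. Both fell within a day of osteogenic medium, fell further by D10, and were higher again at D28. Hs3st3a1, whose promoter is shown above, stood at 8.10, 7.95 and 7.86 at D7, 6.51, 6.31 and 7.10 at D8, 3.54, 3.58 and 2.79 at D10, and 10.33, 8.93 and 9.03 at D28. No 2 time points overlapped. The log2 fold change was -1.33 from D7 to D8 (SE 0.34, adjusted p = 0.011), -3.33 from D8 to D10 (adjusted p = 8.6e-06), -4.66 from D7 to D10 (SE 0.34, adjusted p = 5.2e-08), 6.12 from D10 to D28 (SE 0.34, adjusted p = 1e-09) and 1.46 from D7 to D28 (adjusted p = 0.003). The D7 to D8 call was lost without D8 replicate 2 (-1.16, adjusted p = 0.053).

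Hs3st3b1, the more abundant of the pair per kb at every time point, stood at 9.72, 9.30 and 9.49 at D7, 8.25, 8.20 and 8.79 at D8, 6.54, 6.63 and 6.54 at D10, and 10.93, 9.94 and 10.31 at D28. Again no 2 time points overlapped. Its log2 fold change was -1.09 from D7 to D8 (SE 0.22, adjusted p = 0.0021), -1.84 from D8 to D10 (adjusted p = 2.9e-05), -2.93 from D7 to D10 (SE 0.22, adjusted p = 6e-08), and 3.82 from D10 to D28 (SE 0.22, adjusted p = 1.3e-09). D28 against D7 gave 0.89 (adjusted p = 0.0042), under the fold threshold, and 1.12 without D28 replicate 2. The D7 to D8 call was lost without D7 replicate 1 or D8 replicate 2 (-0.98 in each case). The summed level of the 7 chondrocyte markers other than Col2a1 was also lowest at D10. The summed level of the adipocyte markers was lowest at D10 and highest at D28 as well. From D10 to D28, 5 of 8 osteoblast markers and 4 of 6 macrophage markers rose too. Whether any of these bears on the 2 genes was not tested.

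Of the other 3-O-sulfotransferases, Hs3st1 alone was above 3 reads in every library. Hs3st1, which makes the antithrombin-binding site of heparan sulfate, stood at 4.92, 6.03 and 5.56 at D7, 4.80, 4.92 and 5.56 at D8, 5.77, 3.76 and 5.83 at D10, and 6.62, 6.13 and 6.50 at D28. The D28 libraries were the highest, but the call against D10 (log2 fold change 1.29, SE 0.47, adjusted p = 0.032) was weak. It fell to 0.61 (adjusted p = 0.18) without D10 replicate 2 and was also lost without D28 replicate 1 or 3, and when low values were raised to the 3-read level (1.29, adjusted p = 0.079). Hs3st5 stood at or under 3 reads in all D28 libraries and had a mean of 3.21 ± 1.02 at D10 (SD, n = 3), so it was at least 1.26-fold lower at D28, a difference smaller than the spread of the D10 libraries. Hs3st6 had means between 3.33 and 4.21 with no call, Hs3st4 had signal in 3 libraries only with no call, and Hs3st2 was listed at 0 in every library. Per kb on the linear scale, Hs3st3a1 and Hs3st3b1 together made up 83% to 91.6% of the 3-O-sulfotransferases at D7, 67.5% to 81% at D8, 34% to 67.7% at D10 and 88.3% to 93.2% at D28.

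Ndst enzymes remove acetyl groups from heparan sulfate and replace them with sulfate, the step that opens the chain to all later sulfation. Ndst3 rose at each step to D10 and was at or under 3 reads at D28. Its level was 1.54, 2.52 and 1.37 at D7, 4.30, 4.25 and 4.05 at D8, 7.06, 5.95 and 6.96 at D10, and 0.58, 0 and 0 at D28. No 2 time points overlapped. The log2 fold change was 2.39 from D7 to D8 (SE 0.46, adjusted p = 0.0018), 2.46 from D8 to D10 (adjusted p = 0.0011) and 4.85 from D7 to D10 (SE 0.46, adjusted p = 7.9e-07). All D28 libraries were at or under 3 reads, so the fall from D10 was at least 13.8-fold (adjusted p = 1.7e-08). At D7 too, 2 of 3 libraries were at or under 3 reads, and the call of D28 below D7 (-1.62, adjusted p = 0.012) was lost when low values were raised to the 3-read level, with a pseudocount of 5 and without D7 replicate 2.

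Ndst4 was above 3 reads at D28 only. It was at or under 3 reads in every library of D7, D8 and D10 and stood at 3.45, 3.27 and 4.62 at D28. This was a rise of at least 1.88-fold (adjusted p = 3.1e-05 against D10 and 0.00011 against D7). With low values raised to the 3-read level the log2 fold change was 0.91 in both comparisons (adjusted p = 0.027 and 0.037), under the fold threshold, so neither call held. The 2 genes lie on chromosome 3, Ndst3 at chr3:123526166-123690853 and Ndst4 at chr3:125404076-125728899, 1713.2 kb apart. Both were minor beside Ndst1, which had means of 11.25 ± 0.08 at D7, 11.75 ± 0.01 at D10 and 11.00 ± 0.06 at D28 (SD, n = 3) and no call, and Ndst2, with means between 8.79 and 9.22 and no call. At its peak Ndst3 made up 1.15% to 2.55% of the summed per-kb level of the 4 Ndst genes, while Ndst1 made up 78.8% to 79.9%.

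Hs2st1, the 2-O-sulfotransferase, and Hs6st1, a 6-O-sulfotransferase, had means between 9.76 and 10.16 and between 8.55 and 9.21, with no call. Hs6st2, another 6-O enzyme, peaked at D8: the mean of its D8 libraries was 7.74 ± 0.15 (SD, n = 3), while D7 gave 6.53 ± 0.31, D10 gave 6.53 ± 0.43 and D28 gave 6.38 ± 0.21. The D8 libraries were above all others, with a log2 fold change of 1.22 from D7 (SE 0.24, adjusted p = 0.0022) and -1.21 to D10 (SE 0.24, adjusted p = 0.0018), the latter lost without D10 replicate 3 (-0.96). Hs6st3 was not tested.

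Between D7 and D10 Has1 rose and Has2 fell. Has1, whose promoter is shown above, stood at 5.49, 4.97 and 4.11 at D7, 6.00, 6.04 and 6.40 at D8, 7.37, 6.92 and 7.03 at D10, and 3.17, 4.43 and 4.49 at D28. The D10 libraries were above all others, and D28 overlapped D7. The log2 fold change was 2.25 from D7 to D10 (SE 0.39, adjusted p = 0.00029) and -3.07 from D10 to D28 (SE 0.39, adjusted p = 8.9e-06), an 8.43-fold fall. The D7 to D8 call (1.29, adjusted p = 0.029) was fragile, and was lost on leaving out D7 replicate 2, D7 replicate 3 or any D8 library (adjusted p from 0.05 to 0.12). D28 against D7 was not called (-0.82, adjusted p = 0.12), but was without D7 replicate 3 (-1.20, adjusted p = 0.029).

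Has2, the main hyaluronan synthase of developing limbs, stood at 8.55, 8.98 and 8.53 at D7, 8.68, 9.09 and 9.33 at D8, 7.25, 7.85 and 7.67 at D10, and 8.64, 8.30 and 8.61 at D28. The D10 libraries were the lowest, with a log2 fold change of -1.45 against D8 (SE 0.20, adjusted p = 9.1e-05) and -1.10 against D7 (SE 0.20, adjusted p = 0.00034). The D7 comparison fell under the fold threshold without D7 replicate 2 (-0.95) or D10 replicate 1 (-0.93). Has3 had means between 3.56 and 3.79 and no call. Per kb on the linear scale, Has1 made up 3.88% to 9.72% of the 3 synthases at D7, 9.99% to 12.3% at D8, 32.6% to 48.2% at D10 and 1.81% to 5.67% at D28. At D10 the per-kb level of Has1 was 30.6 ± 5.22 and that of Has2 45.8 ± 9.43 equalized counts per kb (SD, n = 3).

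**Figure D4:**
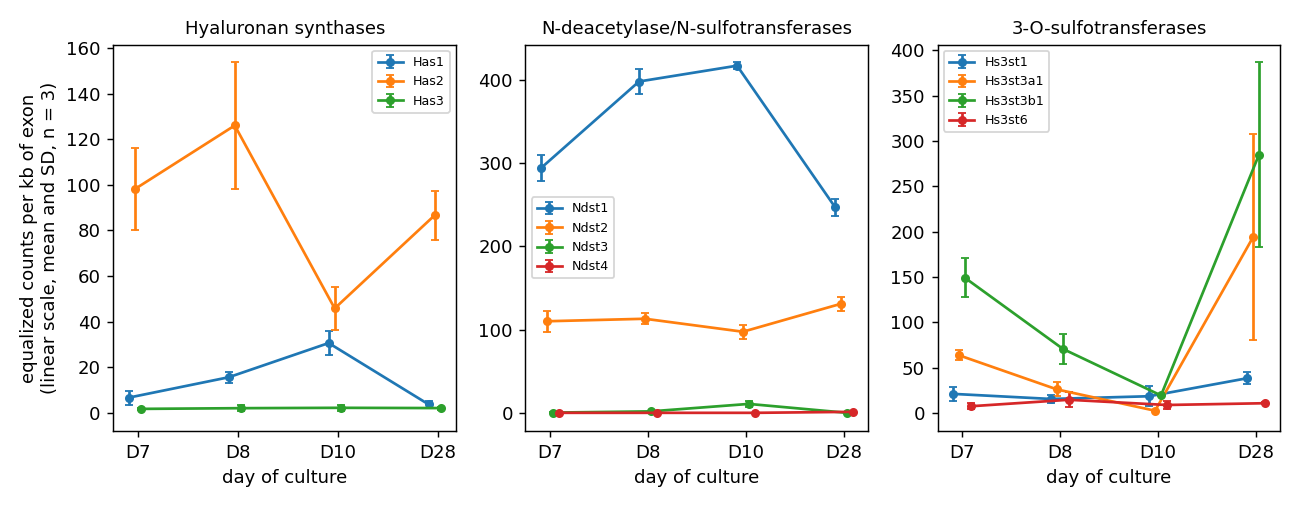
Equalized counts per kb of exon (linear scale, mean and SD of 3 libraries) of the hyaluronan synthases, the Ndst genes and 4 of the 3-O-sulfotransferases on D7, D8, D10 and D28, evenly spaced. Has1 comes nearest to Has2 at D10, Ndst3 stays low beside Ndst1 throughout, and Hs3st3a1 and Hs3st3b1 are lowest at D10.

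Other genes of these pathways were taken from lists of known roles. Of 13 genes for sugar precursors and their transport, 1 was higher and 1 lower at D10 than at D7, against 8.5% and 10.4% of all genes. None changed from D10 to D28, against 27.5% of all genes. A list of 11 genes held other linker enzymes, epimerases and further chain enzymes. Of these 1 was higher and 1 lower at D10 than at D7, against 8.5% and 10.4% of all genes. The higher gene was B3gnt2, which extends poly-N-acetyllactosamine chains, with a mean of 2.87 ± 0.30 at D7 and 5.14 ± 0.14 at D10 (log2 fold change 2.27, adjusted p = 8.2e-05). Its D7 mean stood at about the highest 3-read level, so the size of this fold is uncertain. Of 23 genes for editing and degradation, 0 were higher and 1 lower at D10 than at D7, against 8.5% and 10.4% of all genes. From D10 to D28, 5 rose and 1 fell, against 13.8% and 13.7% of all genes. At D28, 1 was higher and 0 lower than at D7, against 8.63% and 8.66%. Sulf2, which removes 6-O-sulfate from heparan sulfate outside the cell, fell from 13.07 ± 0.20 at D7 to 11.26 ± 0.16 at D10 (log2 fold change -1.81, adjusted p = 2.5e-07). From D10 it rose to 13.67 ± 0.22 at D28 (log2 fold change 2.42, SE 0.15, adjusted p = 4.8e-09). D28 against D7 gave 0.60 (adjusted p = 0.0057), under the fold threshold. Hyal3 was also called, but its D10 level was 1.86 ± 1.63, under the 3-read level, against 4.11 ± 0.24 at D28 (SD, n = 3), so no fold is given.

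Of 33 tested core proteins and hyaluronan partners, 16 were lower and 1 higher at D10 than at D7 (against 10.4% and 8.5% of all genes), and 12 rose and 8 fell from D10 to D28 (against 13.8% and 13.7%). The median log2 fold change between D7 and D10 was -1.08 for these genes, against 0.05 for all genes and -0.38 for the members. Ogn, a small leucine-rich proteoglycan, had a log2 fold change of -4.26 from D7 to D10 (adjusted p = 2.5e-08) and 4.72 from D10 to D28 (adjusted p = 2.9e-09), and Omd, of the same class, had -3.29 (adjusted p = 3.1e-06) and 5.54 (adjusted p = 5.8e-09). Bgn of this class was not called (-0.09, adjusted p = 0.74, and 0.24, adjusted p = 0.33), nor was Kera, which was at or under 3 reads in all D10 libraries. Hapln1, which links aggrecan to hyaluronan, had -2.13 (adjusted p = 2.5e-05) and 2.78 (adjusted p = 8.8e-07). At D28, 3 of these genes were higher and 9 lower than at D7 (against 8.63% and 8.66% of all genes). The higher ones were Omd (2.25, adjusted p = 0.00014), Prelp (1.68, adjusted p = 2.6e-05) and Gpc4 (1.22, adjusted p = 5.1e-06). The lower ones included Hmmr, a hyaluronan-binding protein of dividing cells (-3.0, adjusted p = 1.6e-05), Tnfaip6 (-2.93, adjusted p = 1.4e-08) and the lubricin gene Prg4 (-2.79, adjusted p = 2.2e-07).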

How the data were processed

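Gene expression was measured by stranded poly-A mRNA-seq in 12 libraries, 3 at each of 4 time points. Per the labels and the study's methods, the authors trimmed reads with Trimmomatic 0.36, aligned them with HISAT2, counted genes with HTSeq, equalized the counts between libraries and deposited log2 values of the equalized count plus 1. The submitters' processing notes name build GRCm38 and also Cufflinks. The methods name a human build, while the gene symbols are of mouse. Equalization gives every library nearly the same distribution, so total depth is unknown. Relative depth (0.730 to 1.31) was estimated from 562 low genes whose values step by whole reads, which also gave the 3-read level.

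Of the 28244 genes, 17674 reached a log2 value of 1 in 3 or more libraries and were tested with limma 3.58.1 in R 4.3.3, with a variance trend and 1 coefficient for each time point, and p-values were adjusted by Benjamini-Hochberg over all tested genes. The fit had 8 residual degrees of freedom. Fold changes are on the log2(count + 1) scale, which understates the change of low genes. With 3 libraries against 3, an exact permutation test of a single gene cannot go below p = 0.10 (two-sided) and was not used. A member at or under 3 reads in every library of a time point gets a bound, computed from the mean of the other time point against the highest 3-read level, 2.87. Per-kb values are the deposited values unlogged and divided by the union of exons in GENCODE M21 (GRCm38).

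The members, role groups, gene lists and marker lists were chosen with earlier results of these data known. Each library is given for members called in at least 1 comparison with a mean of at least 5 at some time point, up to 4 in each role by the largest fold change. The D28 libraries of Ndst4, under that mean, are given as well. Alternatives changed the low-value filter, scaling, low values, pseudocount, variance trend, replicate block, thresholds and test, and left out each library. Promoter windows came from RefSeq. Protein sequences were not used here.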

Additional observations from a re-analysis of the deposited data

How the results depend on the processing

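No member's log2 fold change turned its direction under any alternative while it was called. Over members and comparisons, 1844 of 1860 verdicts under other settings and 2742 of 2790 with a single library left out kept their side of the threshold. Much of this was fixed in advance, since only 52 of 235 pairs of member and comparison were called. Leaving out a library of a time point outside the comparison also leaves the fold unchanged. Of the 52 member calls, 34 held under each of these alternatives. Without a fold threshold the members called numbered 14 (D7 to D8), 19 (D8 to D10), 31 (D7 to D10), 33 (D10 to D28) and 26 (D7 to D28), and at a log2 fold change of at least 2 they numbered 1, 2, 4, 9 and 3, against 5, 8, 13, 16 and 10 as reported. Over all 17674 genes the same thresholds gave 3714, 5096, 7288, 9259 and 6592 calls, and 388, 532, 1342, 2095 and 1356. With a library left out the counts ranged from 2 to 6, 6 to 8, 11 to 15, 14 to 17 and 9 to 12 in that order, against 1006 to 1331, 1379 to 1775, 3020 to 3452, 4536 to 4896 and 2758 to 3146 of all genes. The 2 came without D8 replicate 2, with 4.26% of members against 5.97% of all genes. Replicate numbers did not pair the libraries (same-number correlations from -0.058 to 0.066 over 18 pairs, and best match to the same number in 10 of 36), and with the replicate block the counts were 5, 8, 13, 16 and 10. Median-of-ratios scaling, applied on top of the equalization, gave 14 members for D7 to D10 (29.8% against 18.8% of all genes). For D10 to D28 it gave 18 (38.3% against 27%), adding Extl1, Extl2 and Has2 to those higher at D28. Signal under 3 reads limits Ndst3 at D7, Ndst4 before D28 and Hs3st5. With low values raised to the 3-read level, the D10 to D28 calls of Ndst4 (0.91), Hs3st5 (-0.61) and Hs3st1 (1.29, adjusted p = 0.079) were lost, as were those of Has1 from D7 to D8 (1.29, adjusted p = 0.062) and of Ndst3 (0.0) and Ndst4 (0.91) from D7 to D28.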
